A study of Mus musculus with 4 samples.

Results

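The genes described here are 8 genes known to be induced by glucocorticoids, Fkbp5, Tsc22d3, Zbtb16, Sgk1, Dusp1, Errfi1, Pdk4 and Angptl4, and the metallothionein genes Mt1 and Mt2. These genes and the gene lists used below were chosen by name, with earlier results of these data known. All 10 genes were found among the 22463 gene symbols of the files. Immortalized brown preadipocytes were infected with an adenovirus carrying GFP (Ad-GFP, GFP-infected cells) or the Cre recombinase (Ad-Cre, Cre-infected cells). Their RNA was sequenced at day 0, before induction of adipogenesis, and at day 2, which gave 1 library per condition and 4 in all. The comparisons ask which of these genes rise when preadipocytes are induced, and whether they do so when MLL4, a methyltransferase that places H3K4me1 and H3K4me2 on enhancers, is deleted.

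All 4 libraries came from 1 kind of cell, isolated from C57BL/6J embryos at E18.5, immortalized with the SV40 large T antigen, lacking MLL3 (Mll3-/-) and carrying floxed Mll4 alleles (Mll4 f/f). The GFP virus leaves the floxed alleles in place, so GFP-infected cells lack MLL3 alone, although their labels call them WT, and Cre-infected cells are the ones labelled as MLL4 KO. Differentiation was induced with a cocktail of 0.02 mM insulin, 1 nM T3, 0.125 mM indomethacin, 0.5 mM IBMX and dexamethasone. The labels write its dose as 2 mg/ml, far above the usual range, so its unit is uncertain, and they list the cocktail for all 4 libraries alike, although day 0 is when it was added. No condition had a replicate, so the differences given here carry no replicate check and no p-value. Intervals are exact binomial 95% intervals on the reads of the libraries compared; they cover counting error only and say nothing of the spread between cultures.

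Dexamethasone is a synthetic glucocorticoid. On binding such a hormone, the glucocorticoid receptor leaves its HSP90 chaperone complex, enters the nucleus and binds glucocorticoid response elements, where it raises the transcription of nearby genes. Metallothioneins are small cysteine-rich proteins that bind zinc and copper. Their genes are switched on by the zinc sensor MTF1 through metal response elements, and glucocorticoids also induce them.

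The deposited reads on transcripts came to between 15831915 and 22099995 per library. The transcript of Mll4, listed under its present symbol Kmt2d, had 6304 reads in GFP-infected and 6316 in Cre-infected cells at day 0, and 8530 and 5595 at day 2, but a count over the whole transcript does not show the loss of a few floxed exons, so it does not check the labels. Among markers fixed by name, the preadipocyte marker Pdgfra had 8315 reads in GFP-infected and 1246 in Cre-infected cells at day 0. Of the 5 preadipocyte markers, 4 were over 2.5-fold lower in Cre-infected cells at that day and none was higher. Beside them, 4.18% of all expressed genes (defined below) were lower and 2.09% higher. The summed level of those 5 markers was 245 RPKM (the reads of a transcript scaled to its exon length and to the depth of the library) in GFP-infected and 25.2 RPKM in Cre-infected cells at day 0, and 82.1 and 39.1 RPKM at day 2. The summed level of 5 fat cell markers rose from 26.2 to 1673 RPKM in GFP-infected cells and from 13.4 to 422 RPKM in Cre-infected cells. Of the brown fat markers, Ucp1 and Cidea had at most 1 read in any library and Ppargc1a at most 9, while Prdm16 had 82 and 116 reads at day 0 and 424 and 105 at day 2 in GFP-infected and Cre-infected cells, with a log2 ratio of −1.66 between them at day 2. No reads were counted for the macrophage markers Ptprc and Emr1 and the erythroid markers that were listed. Csf1r, another macrophage marker, had 16 and 3 reads at day 0 and 2 and 4 at day 2 in GFP-infected and Cre-infected cells. The endothelial markers Pecam1, Cdh5 and Kdr had at most 12 reads in any library. Of the skeletal muscle markers, Myod1 and Myog had at most 1 read in any library, and Acta1 had 453 and 1356 reads at day 0 and 12 and 88 at day 2 in GFP-infected and Cre-infected cells. Des, another of them, had 19 and 0 reads at day 0 and 5 and 49 at day 2. In bulk RNA, fewer cells of a type and less RNA per cell cannot be told apart, and the part that these marker differences have in the results below was not tested.

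In GFP-infected cells, 7 of the 10 genes rose past 2.5-fold by day 2, namely Fkbp5, Tsc22d3, Zbtb16, Errfi1, Pdk4, Angptl4 and Mt2, and 1 gene, Sgk1, fell past 2.5-fold. Among all expressed genes, which are those with an RPKM above 1 in any library (11861 genes), 8.44% rose and 13.1% fell past 2.5-fold in the same comparison. In Cre-infected cells, 7 genes also rose past 2.5-fold, beside 9.62% of all expressed genes, and none fell, beside 10.5%. Mt1 took the place of Errfi1 among those 7. Before induction, Cre-infected and GFP-infected cells differed past 2.5-fold in 1 gene, Pdk4, which was lower in Cre-infected cells (beside 4.18% lower and 2.09% higher of all expressed genes). At day 2 the genes parted in both directions: Tsc22d3, Zbtb16, Errfi1, Pdk4 and Angptl4 were over 2.5-fold lower in Cre-infected cells (beside 9.89% of expressed genes), and Dusp1, Mt1 and Mt2 were over 2.5-fold higher (beside 9.6%). These comparisons share libraries, so a high or low value in 1 library enters more than 1 of them.

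**Figure D1:**
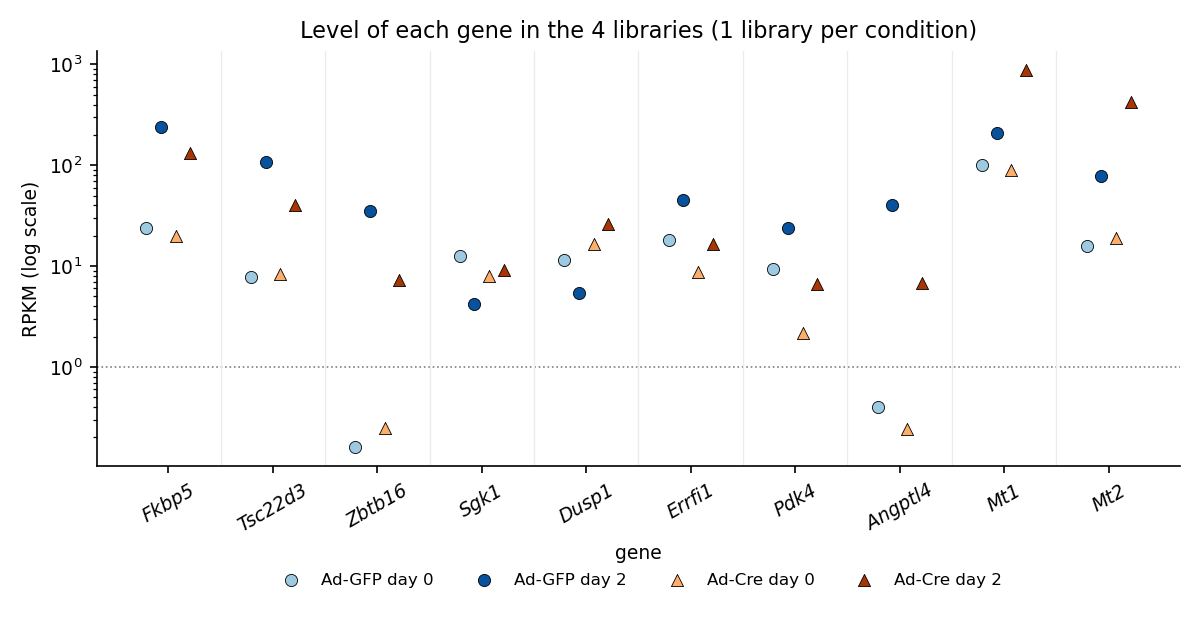
Level of each of the 10 genes (RPKM, log scale) in the 4 libraries, with circles for Ad-GFP and triangles for Ad-Cre cells, light at day 0 and dark at day 2. The dotted line marks 1 RPKM, and Zbtb16 and Angptl4 are the 2 genes below it at day 0, with levels from 0.159 to 0.397 RPKM.

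The plot of levels shows that the genes started far apart. All 10 passed the threshold for expression, and 8 of them were above 1 RPKM in every library. At day 0 in GFP-infected cells, Mt1 was highest at 101 RPKM and Fkbp5 was next at 24.0 RPKM, while Zbtb16 and Angptl4 had 14 and 13 reads. At day 2 in GFP-infected cells the order was led by Fkbp5 (242 RPKM), Mt1 (209 RPKM) and Tsc22d3 (107 RPKM), and Sgk1 was the lowest at 4.25 RPKM. At day 2 in Cre-infected cells it was led by Mt1 (888 RPKM), Mt2 (419 RPKM) and Fkbp5 (134 RPKM), and Pdk4 was the lowest at 6.65 RPKM. With 1 library per condition, no spread between samples is known for the order of neighbouring genes.

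**Figure D2:**
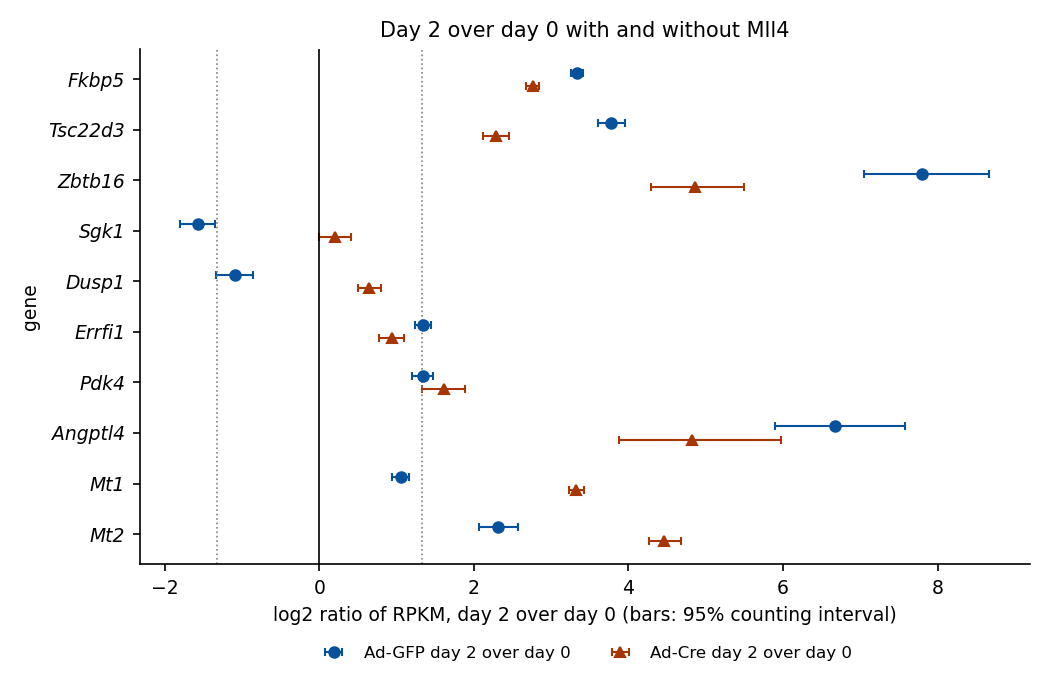
Log2 ratio of RPKM at day 2 over day 0 for each gene in Ad-GFP (blue circles) and Ad-Cre cells (brown triangles), with 95% counting intervals as bars and dotted lines at 2.5-fold. Zbtb16 has the highest ratio of the 10 genes in both kinds of cell. Its interval overlaps that of Angptl4 in Ad-GFP cells and those of Angptl4 and Mt2 in Ad-Cre cells. Sgk1 and Dusp1 are the 2 genes below 0 in Ad-GFP cells.

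Fkbp5 encodes a co-chaperone of HSP90 that binds the glucocorticoid receptor complex and lowers its affinity for hormone. The gene lies at chr17:28536040-28654469 of NCBI37/mm9, the build of all gene positions here, on the minus strand (transcript NM_010220, 14 exons in the longest annotated coding transcript). Its reads were 1447 in GFP-infected and 1349 in Cre-infected cells at day 0, and 19477 and 8460 at day 2. In RPKM these were 24.0, 19.7, 242 and 134. Fkbp5 was thus high in both day 2 libraries and, of the 2, higher in GFP-infected cells. It rose 10.1-fold in GFP-infected cells (log2 ratio 3.33, 95% interval 3.26 to 3.41) and 6.79-fold in Cre-infected cells (2.76, 2.68 to 2.85). At day 2 the log2 ratio of Cre- to GFP-infected cells was −0.85 (−0.89 to −0.82), which did not pass 2.5-fold, and at day 0 it was −0.28 (−0.39 to −0.18). The log2 ratio of the inductions, which is the Cre-infected ratio of day 2 to day 0 over the same ratio in GFP-infected cells, was −0.57 (−0.68 to −0.46).

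Tsc22d3 encodes GILZ, a leucine zipper protein that mediates part of the anti-inflammatory action of glucocorticoids. It lies at chrX:137074067-137135198 on the minus strand. The transcript with most reads, NM_001077364, had 289 reads in GFP-infected and 351 in Cre-infected cells at day 0, with levels of 7.82 and 8.37 RPKM. By day 2 it held 5303 reads (107 RPKM) in GFP-infected and 1575 reads (40.7 RPKM) in Cre-infected cells. The day 0 libraries were close, with a log2 ratio of Cre- to GFP-infected cells of 0.10 (−0.13 to 0.33), and the day 2 libraries were not. Tsc22d3 rose 13.7-fold in GFP-infected cells (log2 ratio 3.78, 3.61 to 3.95) and 4.86-fold in Cre-infected cells (2.28, 2.11 to 2.45). At day 2 it was over 2.5-fold lower in Cre-infected cells (−1.40, −1.48 to −1.32), close to the cutoff, and the ratio of inductions was −1.50 (−1.74 to −1.26). With TMM factors the day 2 log2 ratio was −1.27, and with the second listed transcript, NM_010286, it was −1.31, neither of which passed 2.5-fold. Of windows of 50 bases along the longest annotated coding transcript of Tsc22d3, 36.1% also matched elsewhere in the genome with at most 2 mismatches, so its reads may be shared with other copies and its level is uncertain. The share was at most 5.88% for each of the other 9 genes.

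Zbtb16 encodes PLZF, a zinc finger transcriptional repressor. It lies at chr9:48462416-48644050 on the minus strand (NM_001033324, 7 exons). It was nearly silent before induction, with 14 reads (0.159 RPKM) in GFP-infected and 25 reads (0.251 RPKM) in Cre-infected cells. At day 2 it had 4160 reads (35.4 RPKM) in GFP-infected and 672 reads (7.29 RPKM) in Cre-infected cells. Both day 2 libraries stood far above both day 0 libraries. In GFP-infected cells Zbtb16 rose 222-fold (log2 ratio 7.80, 7.05 to 8.67), and 3 of the expressed genes with reads in both libraries had a higher ratio. In Cre-infected cells the rise was 29.1-fold (4.86, 4.29 to 5.50), with 39 expressed genes above it. These folds rest on day 0 levels under 1 RPKM, and with 1 RPKM added to both sides the log2 ratios were 4.97 and 2.73. The log2 ratio of Cre- to GFP-infected cells was 0.65 at day 0, with an interval from −0.35 to 1.71 that holds 0, and −2.28 (−2.40 to −2.16) at day 2. The ratio of inductions was −2.93 (−4.00 to −1.93), the lowest of the 10 genes, though with few reads behind its day 0 values and an interval that overlaps that of Angptl4.

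Angptl4 and Pdk4 act in fuel use and respond to fatty acids through PPAR receptors as well as to glucocorticoids. Angptl4 encodes a secreted inhibitor of lipoprotein lipase and lies at chr17:33910695-33918520 on the minus strand (NM_020581, 7 exons). It had 13 reads (0.397 RPKM) in GFP-infected and 9 reads (0.242 RPKM) in Cre-infected cells at day 0. By day 2 it had reached 1769 reads (40.4 RPKM) in GFP-infected and 236 reads (6.88 RPKM) in Cre-infected cells. Like Zbtb16 it was thus low in both day 0 libraries, and it rose 102-fold in GFP-infected (log2 ratio 6.67, 5.89 to 7.58) and 28.4-fold in Cre-infected cells (4.83, 3.88 to 5.97). With 1 RPKM added to both sides these log2 ratios were 4.89 and 2.66. At day 2 Angptl4 was 5.88-fold lower in Cre-infected than in GFP-infected cells (−2.56, −2.76 to −2.36), the lowest log2 ratio of the 10 genes in that comparison. Its interval overlaps that of Zbtb16 (−2.40 to −2.16). The ratio of inductions of Angptl4, −1.84, had a wide interval of −3.20 to −0.42.

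Pdk4 encodes a kinase that turns off pyruvate dehydrogenase and so spares glucose, and it lies at chr6:5433351-5446309 on the minus strand (NM_013743, 11 exons). Reads numbered 557 (9.38 RPKM) in GFP-infected and 147 (2.18 RPKM) in Cre-infected cells at day 0, and 1881 (23.7 RPKM) and 414 (6.65 RPKM) at day 2. Both Cre-infected values were below both GFP-infected values. Pdk4 rose 2.53-fold in GFP-infected cells (log2 ratio 1.34, 1.20 to 1.48), just past the cutoff, and 3.05-fold in Cre-infected cells (1.61, 1.33 to 1.89). It was 4.30-fold lower in Cre-infected cells before induction (−2.10, −2.38 to −1.84) and 3.56-fold lower at day 2 (−1.83, −1.99 to −1.68). The ratio of inductions of Pdk4 was 0.27, with an interval of −0.04 to 0.58 that holds 0.

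Errfi1 encodes MIG6, a feedback inhibitor of the EGF receptor. It lies at chr4:150228028-150243001 on the plus strand (NM_133753, 4 exons). Its reads were 935 (18.0 RPKM) in GFP-infected and 513 (8.71 RPKM) in Cre-infected cells at day 0, and 3165 (45.6 RPKM) and 907 (16.7 RPKM) at day 2. The day 2 level in Cre-infected cells thus lay near, and below, the day 0 level in GFP-infected cells. Errfi1 rose 2.53-fold in GFP-infected cells (log2 ratio 1.34, 1.24 to 1.45), again just past the cutoff, and its ratio in Cre-infected cells, 0.94 (0.78 to 1.10), did not pass. Against GFP-infected cells, Cre-infected cells gave a log2 ratio of −1.05 (−1.21 to −0.89) before induction and −1.45 (−1.56 to −1.35) at day 2, and the ratio of inductions was −0.40 (−0.60 to −0.21). With TMM factors the rise in GFP-infected cells and the day 2 difference were 1.25 and −1.32, neither past 2.5-fold.

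Sgk1 and Dusp1 had a different pattern from the genes above. Sgk1 encodes a serine/threonine kinase that acts on ion channels and in cell survival. The gene lies at chr10:21601990-21719709 on the plus strand, and 6 transcripts are listed, with 517 to 535 reads in the GFP-infected library at day 0. The transcript with most reads, NM_011361, had 535 reads (12.7 RPKM) in GFP-infected and 381 reads (7.95 RPKM) in Cre-infected cells at day 0, and 240 reads (4.25 RPKM) and 404 reads (9.13 RPKM) at day 2. The GFP-infected library at day 2 was the lowest of the 4, and the other 3 lay within a narrower range. Sgk1 fell in GFP-infected cells (log2 ratio −1.58, −1.80 to −1.35) and gave 0.20 in Cre-infected cells, with an interval from −0.01 to 0.40 that holds 0. Between the 2 kinds of cell, the log2 ratio of Cre- to GFP-infected was −0.67 (−0.87 to −0.48) before induction and 1.10 (0.87 to 1.34) at day 2, neither past 2.5-fold, and the ratio of inductions was 1.77 (1.47 to 2.08).

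Dusp1 encodes a phosphatase that turns off MAP kinases and is also an immediate-early gene. It lies at chr17:26642535-26645464 on the minus strand (NM_013642, 4 exons). Reads were 383 (11.5 RPKM) in GFP-infected and 631 (16.7 RPKM) in Cre-infected cells at day 0, and 240 (5.38 RPKM) and 914 (26.1 RPKM) at day 2. As for Sgk1, the GFP-infected library at day 2 was the lowest. The log2 ratio of day 2 to day 0 was −1.09 (−1.33 to −0.86) in GFP-infected and 0.65 (0.50 to 0.80) in Cre-infected cells, and neither passed 2.5-fold. At day 2, however, Dusp1 was 4.85-fold higher in Cre-infected than in GFP-infected cells (2.28, 2.07 to 2.49), against a log2 ratio of 0.54 (0.35 to 0.73) at day 0. The ratio of inductions of Dusp1, 1.74 (1.46 to 2.02), was close to that of Sgk1.

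The windows before the starts of these genes were searched on both strands for 4 short elements bound by known regulators of these genes. RefSeq promoter windows of 250 bases before to 50 after a start, on GRCm38.p6, were at hand for 8 of the 10 genes (16 windows), but not for Zbtb16 and Angptl4. The full palindrome of the glucocorticoid response element (AGAACA, any 3 bases and TGTTCT, which reads the same on both strands) was in 3 of 32851 windows of all genes, 0.00913%, and 1 of these belongs to Sgk1. It lies 189 bases before 1 of the 6 starts of Sgk1. The cAMP response element (TGACGTCA) was in 1.79% of all windows, among them that of Dusp1, 143 bases before the start, and 1 of 2 windows of Errfi1, 51 bases before. Each of Sgk1 and Dusp1 also had 1 window with the metal response element core given with Mt1 and Mt2, and no match overlapped one of another element. No window of Fkbp5, Tsc22d3 or Pdk4 held either of them, the metal core or the PPAR element searched (AGGTCA, any 1 base and AGGTCA, in 0.0396% of windows), which says only that these letters are not in these windows. These windows of Sgk1 and Dusp1 are shown because they hold the rarest element found and the cAMP element in the 1 window of Dusp1, with the element in capitals. The bases are those before the start, on the plus strand at chr10:21993640-21993889 for Sgk1 and on the minus strand at chr17:26508473-26508722 for Dusp1.
Sgk1: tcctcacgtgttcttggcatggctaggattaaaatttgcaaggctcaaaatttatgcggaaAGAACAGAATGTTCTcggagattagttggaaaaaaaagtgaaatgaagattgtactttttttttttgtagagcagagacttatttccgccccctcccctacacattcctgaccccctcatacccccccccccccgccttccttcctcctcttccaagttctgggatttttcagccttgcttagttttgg
Dusp1: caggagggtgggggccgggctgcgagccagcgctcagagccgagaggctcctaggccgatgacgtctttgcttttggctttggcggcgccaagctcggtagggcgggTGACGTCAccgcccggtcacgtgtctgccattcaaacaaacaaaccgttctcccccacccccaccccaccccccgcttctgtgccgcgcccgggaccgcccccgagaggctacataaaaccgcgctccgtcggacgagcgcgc

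Mt1 and Mt2 lie side by side on the plus strand of chromosome 8, Mt2 at chr8:96696518-96697467 and Mt1 at chr8:96702989-96704225, with 5521 bases between them. Their counted transcripts (NM_008630 and NM_013602) are short, at 556 and 542 bases of exon. The metal response element core was searched as TGCACNC and TGCGCNC on both strands, and 25.7% of all promoter windows held at least 1. The window of Mt2 held 4 (starting 223, 128 and 50 bases before and at base 5 after the start), and 0.517% of all windows held 4 or more, while that of Mt1 held 3 (23 bases before and at bases 3 and 21 after the start). A match is a description of the letters and not a test of binding. The bases before each start are shown because these elements are the best-known inputs of both genes, with each core in capitals, at chr8:94178839-94179088 for Mt1 and chr8:94172368-94172617 for Mt2, both on the plus strand of GRCm38.p6.
Mt1: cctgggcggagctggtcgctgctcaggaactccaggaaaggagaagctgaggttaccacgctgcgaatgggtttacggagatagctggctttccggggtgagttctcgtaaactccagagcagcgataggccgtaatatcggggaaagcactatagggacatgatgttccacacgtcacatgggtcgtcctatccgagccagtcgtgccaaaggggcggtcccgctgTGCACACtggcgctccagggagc
Mt2: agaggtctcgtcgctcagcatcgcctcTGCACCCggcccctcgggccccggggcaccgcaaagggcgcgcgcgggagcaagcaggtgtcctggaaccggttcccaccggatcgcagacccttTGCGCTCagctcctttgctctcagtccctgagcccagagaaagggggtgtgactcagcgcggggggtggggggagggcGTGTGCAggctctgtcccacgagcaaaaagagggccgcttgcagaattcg

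Mt1 had 937 reads (101 RPKM) in GFP-infected and 939 reads (88.8 RPKM) in Cre-infected cells at day 0. At day 2 it had 2598 reads (209 RPKM) in GFP-infected and 8675 reads (888 RPKM) in Cre-infected cells. The day 0 libraries were thus near each other, and the Cre-infected library at day 2 stood above the other 3. The log2 ratio of day 2 to day 0 was 1.05 (0.94 to 1.16) in GFP-infected cells, which did not pass 2.5-fold, and Mt1 rose 10.00-fold in Cre-infected cells (3.32, 3.22 to 3.42). At day 2 Mt1 was 4.26-fold higher in Cre-infected than in GFP-infected cells (2.09, 2.03 to 2.15), against a log2 ratio of −0.18 (−0.31 to −0.05) at day 0.

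Mt2 had 151 reads (15.8 RPKM) in GFP-infected and 206 reads (19.0 RPKM) in Cre-infected cells at day 0, and 1006 reads (78.7 RPKM) and 4205 reads (419 RPKM) at day 2. It rose 4.98-fold in GFP-infected cells (log2 ratio 2.32, 2.07 to 2.57) and 22.1-fold in Cre-infected cells (4.47, 4.26 to 4.67). Unlike Mt1, Mt2 thus rose past the cutoff in both kinds of cell. At day 2 it was 5.33-fold higher in Cre-infected cells (2.41, 2.31 to 2.51), with a log2 ratio of 0.27 (−0.04 to 0.58) at day 0. The ratios of inductions were 2.27 (2.12 to 2.42) for Mt1 and 2.15 (1.82 to 2.47) for Mt2, which with transcript length divided out, as given below, were under those of Sgk1 and Dusp1. Mt1 was higher than Mt2 per length in every library, by 6.37 times in GFP-infected and 4.68 times in Cre-infected cells at day 0, and by 2.65 and 2.12 times at day 2. The sum of both was 116 and 108 RPKM at day 0 in GFP-infected and Cre-infected cells, and 287 and 1307 RPKM at day 2.

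**Figure D3:**
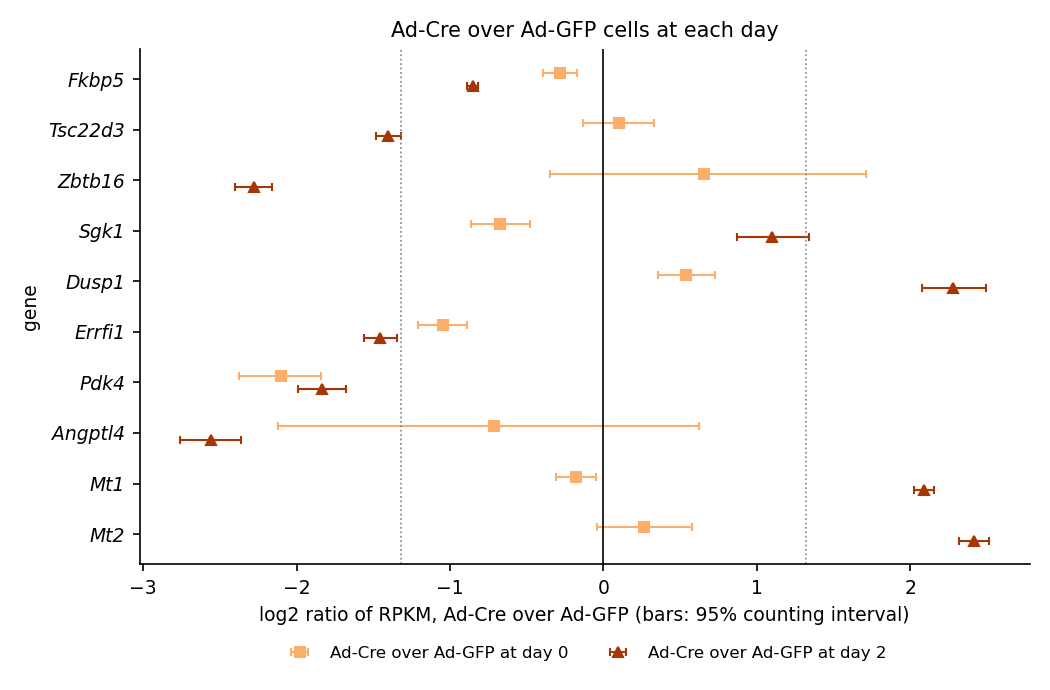
Log2 ratio of RPKM in Ad-Cre over Ad-GFP cells for each gene at day 0 (light squares) and day 2 (dark triangles), with 95% counting intervals as bars and dotted lines at 2.5-fold. At day 0 only Pdk4 of the 10 genes passes a dotted line, and at day 2 5 genes lie past the lower and 3 past the upper line.

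The plot of Cre- over GFP-infected cells shows the 10 genes spread over log2 ratios of −2.56 to 2.41 at day 2, against −2.10 to 0.65 at day 0. Over all expressed genes the median log2 ratio was −0.14 at day 2 and −0.02 at day 0, and with TMM factors the day 2 median was −0.01, so every day 2 ratio of Cre- to GFP-infected cells was 0.13 higher on that scale. Neither TMM factors nor RPKM by the sum of deposited reads changed the direction of any ratio of the 10 genes.

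Transcript length moved with these ratios. In the day 2 comparison of Cre-infected with GFP-infected cells, the median log2 ratio of the shortest 1 of 20 length bins, up to 710 bases and holding Mt1 and Mt2, was 0.55, and that of the longest bin was −0.80. At day 0 the same medians were −0.18 and −0.01. In the day 2 over day 0 comparison they were 0.91 and −0.69 in Cre-infected cells and 0.16 and 0.13 in GFP-infected cells. Dividing each ratio by the median of its length bin left the day 2 log2 ratios of Cre- to GFP-infected cells at 1.54 for Mt1, 1.86 for Mt2 and 2.22 for Dusp1, all past 2.5-fold. Zbtb16 stood at −1.66, Pdk4 at −1.61, Angptl4 at −2.62 and Tsc22d3 at −1.39 after this division, and Errfi1 at −1.13 no longer passed. The ratios of inductions became 1.92 for Sgk1, 1.67 for Dusp1, 1.52 for Mt1 and 1.40 for Mt2, and −0.09 for both Fkbp5 and Errfi1. With GC content also divided out, the day 2 log2 ratios of Cre- to GFP-infected cells were 1.38 for Mt1, 1.50 for Mt2, 2.01 for Dusp1 and 1.44 for Sgk1, all 4 past 2.5-fold. In that setting Zbtb16 at −1.97 and Angptl4 at −2.52 also passed, and Tsc22d3 at −1.21, Pdk4 at −1.18 and Errfi1 at −0.999 did not. The part of transcript length in these differences was not tested. Ratios of the gene lists below are given without division by the length trend, so which of their genes pass 2.5-fold may also depend on it.

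**Figure D4:**
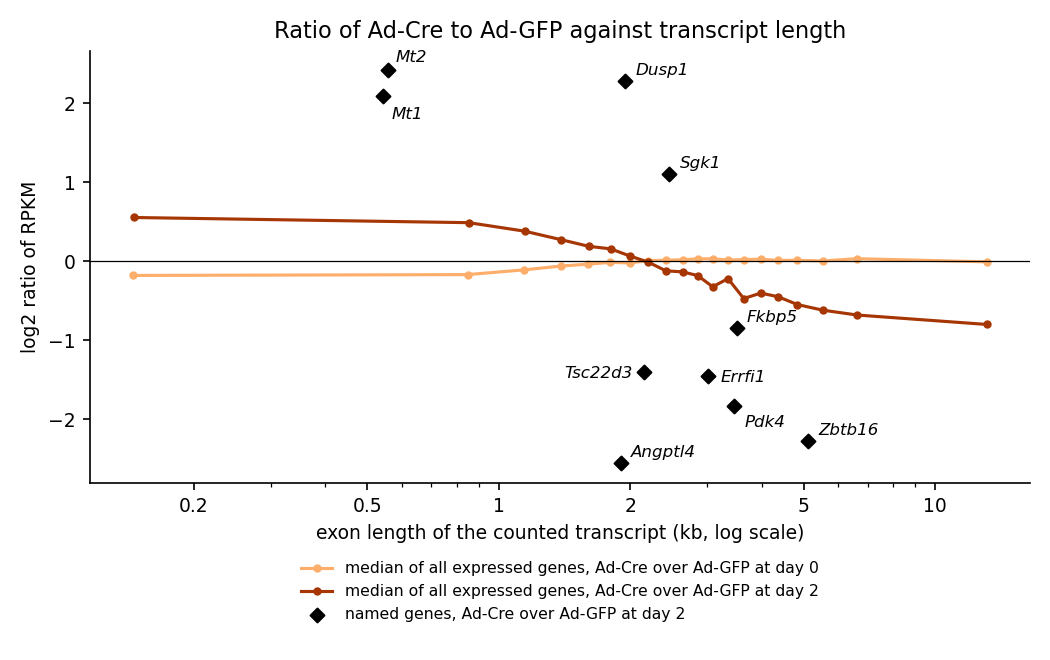
Log2 ratio of RPKM in Ad-Cre over Ad-GFP cells against the exon length of the counted transcript (kb, log scale), with lines for the medians of 20 bins of expressed genes at day 0 (light) and day 2 (dark), placed at the geometric middle of each bin, and diamonds for the 10 genes at day 2. The day 2 line falls from 0.55 at short to −0.80 at long transcripts, with Mt1, Mt2, Dusp1 and Sgk1 above it and the other 6 genes below it.

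The receptor pathway itself was described by 14 genes chosen by name, of which 13 were expressed. Nr3c1, the glucocorticoid receptor gene, had 1524 reads (14.0 RPKM) in GFP-infected and 1923 reads (15.6 RPKM) in Cre-infected cells at day 0, and 2653 (18.2 RPKM) and 1353 (11.9 RPKM) at day 2. Its log2 ratio of Cre- to GFP-infected cells was 0.15 (0.06 to 0.25) before induction and −0.62 (−0.72 to −0.53) at day 2, and no ratio of this gene passed 2.5-fold. Past 2.5-fold in GFP-infected cells by day 2, Hsd11b1, Hsd11b2 and Ncoa1 rose, beside 8.44% of all expressed genes. Of these, Hsd11b1, whose enzyme regenerates active glucocorticoid inside the cell, went from 0 to 49 reads in GFP-infected and from 2 to 9 reads in Cre-infected cells. It was the 1 gene of the 13 over 2.5-fold lower in Cre-infected cells at day 2, a share near the 9.89% of all expressed genes, and the median log2 ratio of the list was −0.38 against −0.14.

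Of 25 other genes known to be induced by glucocorticoids, 22 were expressed. In GFP-infected cells 15 rose and 1, Anxa1, fell past 2.5-fold by day 2 (beside 8.44% and 13.1% of all expressed genes), with a median log2 ratio of 2.17 against 0.14 over all expressed genes. In Cre-infected cells 18 rose and 1 fell (beside 9.62% and 10.5%), with a median of 2.65 against −0.01. At day 2, 5 were over 2.5-fold lower in Cre-infected than in GFP-infected cells (Klf15, Rgs2, Hif3a, Fam107a and Sult1a1), 3 were over 2.5-fold higher (Cebpd, Nfkbia and Gadd45g), beside 9.89% and 9.6% of all expressed genes, and the median was 0.17 against −0.14 over all expressed genes. The transcription factor gene Klf15 had 16 and 32 reads at day 0 and 1726 and 364 at day 2 in GFP-infected and Cre-infected cells, a log2 ratio of −1.90 at day 2. Klf9, another Krüppel-like factor gene, had 360 and 808 reads at day 0 and 6463 and 11575 at day 2, a log2 ratio of 1.19 at day 2, which did not pass. At day 0, 2 of the 22 were over 2.5-fold lower in Cre-infected cells, beside 4.18% of all expressed genes. These were Cdkn1c, an inhibitor of the cell cycle, with 861 reads in GFP-infected and 219 in Cre-infected cells, and Timp4, with 1 and 0 reads.

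**Figure D5:**
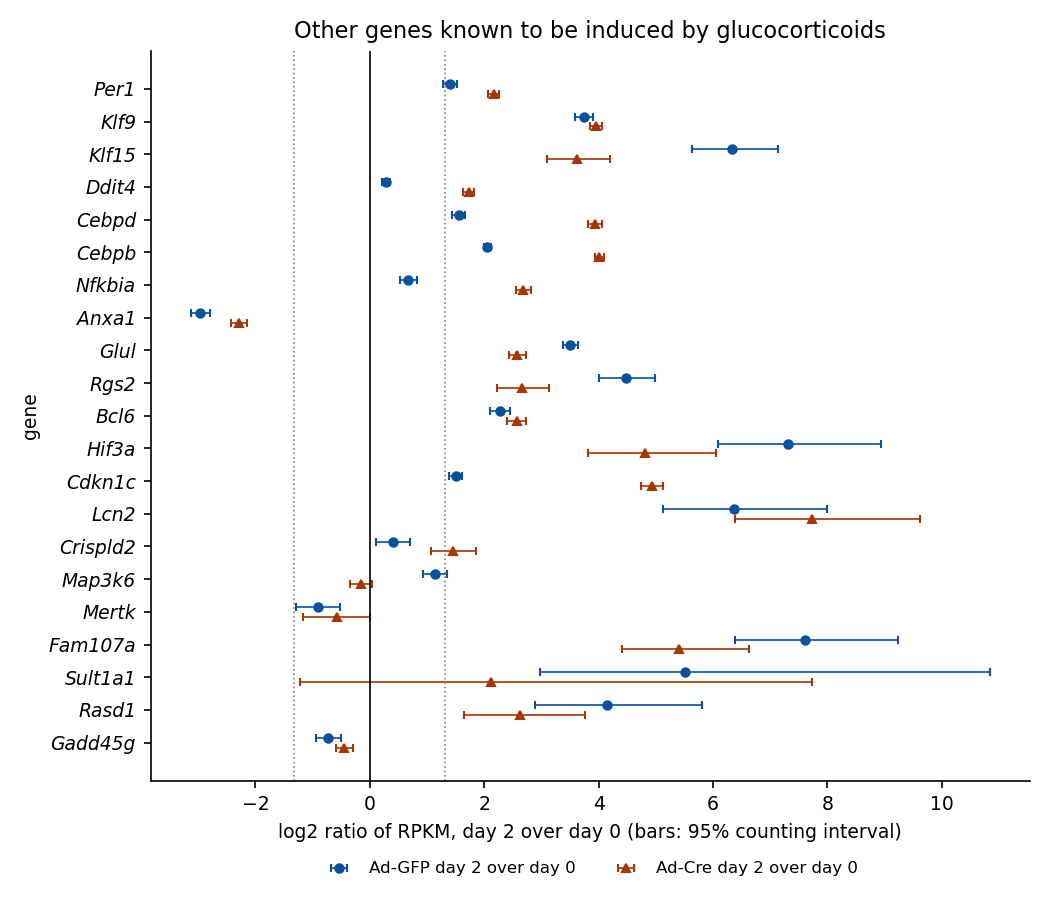
Log2 ratio of RPKM at day 2 over day 0 in Ad-GFP (blue circles) and Ad-Cre cells (brown triangles) for the 21 other glucocorticoid-induced genes that were expressed and had reads in every library, with 95% counting intervals as bars and dotted lines at 2.5-fold. Most lie to the right of the upper line in both kinds of cell, and Anxa1 lies to the left of the lower line in both.

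Angptl4 and Pdk4 were set beside 14 other genes known to be induced by PPAR receptors, 11 of them expressed and 3 of those (Fabp4, Plin1 and Adipoq) also among the fat cell markers. In GFP-infected cells 10 of the 11 rose past 2.5-fold by day 2, beside 8.44% of all expressed genes (median log2 ratio 6.28 against 0.14), and in Cre-infected cells 8 rose, beside 9.62% (median 4.28 against −0.01). At day 2, 10 of the 11 were over 2.5-fold lower in Cre-infected cells and none higher, beside 9.89% and 9.6%, with a median log2 ratio of −2.00 against −0.14 over all expressed genes, beside −2.56 for Angptl4 and −1.83 for Pdk4. The log2 ratios of day 2 to day 0 in GFP-infected and Cre-infected cells were 6.67 and 4.83 for Angptl4. Those of Pdk4 were 1.34 and 1.61, below both medians of the list. At day 0, none of the 11 was over 2.5-fold lower in Cre-infected cells and 1, Aqp7, was higher, beside 4.18% and 2.09% of all expressed genes. The median log2 ratio of the list was 0.02 at that day, beside −0.71 for Angptl4 and −2.10 for Pdk4. Lpl, which encodes the lipase that ANGPTL4 inhibits, went from 293 to 30347 reads in GFP-infected cells and from 182 to 4988 reads in Cre-infected cells.

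Dusp1 was set beside 12 genes known to be induced by cAMP, the messenger that IBMX preserves, of which 9 were expressed. At day 2, Nr4a1 and Nr4a3, immediate-early nuclear receptor genes, were over 2.5-fold higher in Cre-infected than in GFP-infected cells, and Pde3b, a phosphodiesterase gene, was over 2.5-fold lower, beside 9.6% higher and 9.89% lower of all expressed genes, with a median log2 ratio of 0.13 for the list against −0.14. Nr4a3 had few reads and was apart before induction as well, with 5 and 36 reads at day 0 (log2 ratio 2.67) and 16 and 52 at day 2 (2.05) in GFP-infected and Cre-infected cells. Nr4a1 had 303 and 839 reads at day 0 and 365 and 982 at day 2 in GFP-infected and Cre-infected cells. Pde3b rose in both kinds of cell, from 399 to 9654 and from 393 to 2077 reads. Sik1, Pde4d and Pde10a also rose past 2.5-fold in Cre-infected cells, where 9.62% of all expressed genes did. In GFP-infected cells Pde3b was the 1 gene of the 9 to do so, beside 8.44% of all expressed genes. There the log2 ratios of day 2 to day 0 were 0.76 for Sik1, 1.02 for Pde4d and 0.13 for Pde10a. Before induction their log2 ratios of Cre- to GFP-infected cells were −1.45, −0.43 and −0.90. Of these only that of Sik1 was past 2.5-fold, beside 4.18% lower of all expressed genes. At day 2 the same ratios were 0.13, 0.11 and 0.85, none past 2.5-fold.

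Mt1 and Mt2 were set beside genes of the metal response and of zinc transport. Of 15 such genes, 12 were expressed, and at day 2 none was over 2.5-fold higher in Cre-infected than in GFP-infected cells while 3, the zinc transporter genes Slc30a4, Slc39a10 and Slc39a14, were over 2.5-fold lower, beside 9.6% higher and 9.89% lower of all expressed genes. The median log2 ratio of the list in that comparison was −0.36, against −0.14 over all expressed genes. The ratios of this list were not divided by the length trend. Its day 2 medians were 0.55 in the bin of Mt1 and Mt2 and −0.80 in the longest bin. Mtf1, the zinc sensor gene, had 708 and 784 reads at day 0 and 1069 and 1222 at day 2 in GFP-infected and Cre-infected cells, a log2 ratio of 0.54 at day 2. Slc30a1, which encodes a zinc exporter and is an MTF1 target, had 249 and 325 reads at day 0 and 484 and 191 at day 2, a log2 ratio of −0.99. The other metallothionein genes were almost unread, with 3 reads of Mt3 in Cre-infected cells at day 2, none in the other 3 libraries, and none of Mt4 in any.

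The genes most like 3 of the members were found by the Euclidean distance between their log2 ratios in 3 comparisons (both kinds of cell at day 2 over day 0, and Cre-infected over GFP-infected at day 0), among symbols with at least 100 reads in every library. For Fkbp5 these were Glul at 0.25, Gas6 at 0.48 and Bmper at 0.49 log2 units, of 8625 symbols. Glul, which encodes glutamine synthetase, had 494 and 460 reads at day 0 and 7502 and 2540 at day 2 in GFP-infected and Cre-infected cells. For Mt1 they were Cers1 and Gdf1 at 0.68, which have the same reads, and Nfkbia at 0.75, while Mt2 came at place 124 with a distance of 1.76. For Angptl4, of 8626 symbols, they were Lpl at 0.43, Igfbp4 at 1.41 and Cebpa at 1.61 log2 units. Since Angptl4 had 13 and 9 reads at day 0, the counting intervals of its ratios are as wide as the gaps between these distances, and their order is uncertain. Each distance rests on 4 libraries.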

How the data were processed

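RNA-Seq of 4 libraries was analysed, grouped by the sample labels. The authors aligned 50-base reads to NCBI37/mm9 and deposited the count of reads on the exons of each RefSeq transcript as whole numbers without normalization. For the deposited RPKM that count was divided by the bases of exon and the library's mapped reads. How reads with several matches were treated is not given in the sources used here. The submitters' processing notes also list bedtools 2.16 and SICER 1.1, with no role.

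Symbols from a RefSeq table (GRCm38.p6) matched 97.8% of 29082 transcripts, and the rest were left out. Each gene was represented by its transcript with most reads. The members and all gene lists were chosen with earlier results of these data known. The values of 1 gene of the lists are not reported here. The cutoff of 2.5-fold and the threshold of 1 RPKM are those of the study's methods. The genes named are the members, the members of the lists and, for Fkbp5, Mt1 and Angptl4, the 3 symbols nearest in log2 ratios. Ratios are of RPKM without a pseudocount, with exact binomial 95% intervals (scipy 1.17.1). No test between conditions was run. At 1 kb, 3 reads correspond to between 0.131 and 0.174 RPKM. TMM factors came from edgeR 4.0.16 in R 4.3.3, with no edgeR test. The GENCODE vM1 annotation of NCBI37/mm9 gave coordinates and exons by symbol, and blastn 2.17.0 matched windows of 50 bases. Scripts ran in Python 3.11.15 with pandas 2.3.3, numpy 2.4.6 and, for plots, matplotlib 3.10.9, and were tested on simulated data. The alternatives were the RPKM denominator, TMM factors, a cutoff of 2-fold or 4-fold, 1 RPKM added to both sides, a minimum of 20 reads, the interval bound, the transcript with fewest reads, and division by the length trend in 20 bins. Division by length and GC content together was chosen after seeing the data.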

Additional observations from a re-analysis of the deposited data

Results flagged for a closer look

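The day 2 over day 0 ratios of 2 of the 10 genes pointed in opposite directions in the 2 kinds of cell. The log2 ratio of Sgk1 was −1.58 in GFP-infected and 0.20 in Cre-infected cells, the latter with a counting interval that holds 0. For Dusp1 the log2 ratio was −1.09 in GFP-infected and 0.65 in Cre-infected cells. With 1 library per condition, the difference was not tested.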

How the results depend on the processing

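The 4 comparisons gave 8 counts of genes past the cutoff, and over 9 planned settings and 1 chosen after seeing the data, 73 of 80 recomputed counts were within 1.5 times the value reported. Genes over 2.5-fold lower in Cre-infected cells at day 2 numbered 5, and 3 with RPKM by the sum of deposited reads, 3 with TMM factors (Zbtb16, Pdk4 and Angptl4), 2 at a cutoff of 4-fold and 2 with length and GC trends divided out (Zbtb16 and Angptl4 in both). Genes lower at day 2 in GFP-infected cells numbered 1, and 2 at a cutoff of 2-fold and 0 at 4-fold. Genes lower in Cre-infected cells at day 0 numbered 1, and 2 at a cutoff of 2-fold. Errfi1 and Pdk4 in GFP-infected cells, at 2.53-fold, lay just past the cutoff, and 5 genes rather than 7 rose there with TMM factors, with a pseudocount of 1 RPKM, by the interval bound or with the length trend divided out. Of 50 log2 ratios per setting, 43 stayed within their counting interval with TMM factors and 30 with the length trend divided out. The sign turned for Mt1 at day 0 in Cre- over GFP-infected cells (−0.18, and 0.003 with length and 0.09 with length and GC divided out) and for the ratio of inductions of Errfi1 (−0.40, and 0.04 with length and GC divided out); the cause was not tested. No paired analysis was possible because each condition has 1 library. Zbtb16 and Angptl4, with 9 to 25 reads at day 0, have the widest intervals.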

Other observations

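Genes known to be repressed by glucocorticoids were also read. Of 13 such genes, 6 were expressed, and all 6 fell past 2.5-fold in GFP-infected cells by day 2, beside 13.1% of all expressed genes and with a median log2 ratio of −4.52 against 0.14. In Cre-infected cells 5 of them fell, beside 10.5% of all expressed genes and with a median of −3.34 against −0.01. Col1a1, a collagen gene of preadipocytes, went from 100715 to 7106 reads in GFP-infected and from 92543 to 11996 reads in Cre-infected cells. Ccl2, which encodes a chemokine, went from 254 to 5 and from 215 to 11 reads. At day 2, Ccl2, Cxcl1 and Ptgs2 were over 2.5-fold higher in Cre-infected than in GFP-infected cells, beside 9.6% of all expressed genes, each with few reads (11, 11 and 65 against 5, 1 and 29). The interval of the log2 ratio of Ccl2, −0.15 to 3.36, holds 0. Ptgs2 was over 2.5-fold higher before induction too, with 336 reads in GFP-infected and 1014 in Cre-infected cells (log2 ratio 1.41, and 1.51 at day 2). Vcam1 was over 2.5-fold lower before induction, with 1860 reads in GFP-infected and 617 in Cre-infected cells (log2 ratio −1.77, and −0.13 at day 2). Of all expressed genes, 2.09% were higher and 4.18% lower before induction, and the median log2 ratio of the list was −0.36 against −0.02.

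The gene Cebpb, whose product acts early in adipogenesis, had 2293 reads in GFP-infected and 1385 in Cre-infected cells at day 0 and 12711 and 20609 at day 2. Cebpd, its relative, had 764 and 545 reads at day 0 and 3000 and 7699 at day 2, and its log2 ratio of Cre- to GFP-infected cells at day 2 was 1.71, past 2.5-fold. Both rose past 2.5-fold in both kinds of cell.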
